A study of Homo sapiens with 12 samples.

Results

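The genes described here are the 10 core members of the NF-kB system: the subunits NFKB1, NFKB2, RELA, RELB and REL, the inhibitors NFKBIA, NFKBIB and NFKBIE, and the kinases CHUK and IKBKB. They were found by their symbols among the 58735 lines of the count table, each on 1 line, and all 10 were among the 16946 genes with enough counts to be tested. Their counts come from RNA sequencing of CAL-27 and SCC-15, 2 established human lines derived from oral squamous carcinoma, with 3 libraries in each of 4 groups. The groups are CAL-27 shControl, CAL-27 shTTK, SCC-15 shControl and SCC-15 shTTK, where shTTK marks cells with knockdown of TTK by a short hairpin RNA. TTK is a kinase of the mitotic spindle checkpoint. The control libraries are titled shControl and also carry the genotype WT, so the labels leave it unsettled whether these cells held a control hairpin. All 4 groups are labelled untreated, with no cytokine or other stimulus, and all 12 libraries carry the same batch number. The labels name neither the hairpin sequence nor the number of hairpins or clones. Whether libraries of a group came from separate cultures is not stated, so the p-values measure the spread of these libraries alone, which may be technical.

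NF-kB is a family of dimeric transcription factors. In resting cells the IkB proteins, encoded by NFKBIA (IkB-alpha), NFKBIB (IkB-beta) and NFKBIE (IkB-epsilon), hold the dimers in the cytoplasm. On a signal such as TNF or interleukin 1, the kinase IKK-beta (IKBKB) phosphorylates the IkB proteins, which are then degraded, and dimers such as RELA with the p50 product of NFKB1 enter the nucleus. In a parallel route IKK-alpha (CHUK) drives the processing of the NFKB2 product p100 to p52, which pairs with RELB. The system feeds back on itself, since NFKBIA, NFKB2, RELB, BIRC3 and TNFAIP3 are textbook targets of NF-kB. In squamous epithelium the same factors govern cytokine production and survival.

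Several members carry the recognition motif of NF-kB in their own promoters, and these stretches are shown so that the motif can be read in each gene. The windows were the 250 bases before a transcription start in RefSeq (GRCh38.p14). Windows of 7 of the 10 members were searched, 12 windows in all. No window was searched for RELB, NFKBIE and IKBKB, each called with the knockdown in a line. Whether these members hold the motif was therefore not tested. The kappaB consensus of 10 bases, searched on both strands, was found in 6 windows of 5 members. The same motif lay in 9.96% of all 35116 windows and in 11.8% of 27305 genes. NFKB2 and REL hold the motif and were called with the knockdown in neither line. A match is a description of the letters and not evidence of binding. Each stretch below is 30 bases, 5′ to 3′ on the strand of its gene, with the motif in capitals.
NFKB1, chr4:102501300-102501329, plus strand: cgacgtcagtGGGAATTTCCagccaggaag
NFKB2, chr10:102394461-102394490, plus strand: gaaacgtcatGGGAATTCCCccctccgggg
NFKB2, chr10:102395674-102395703, plus strand: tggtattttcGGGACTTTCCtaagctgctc
REL, chr2:60881517-60881546, plus strand: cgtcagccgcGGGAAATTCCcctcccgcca
NFKBIB, chr19:38899931-38899960, plus strand: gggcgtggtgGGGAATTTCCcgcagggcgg

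Distances are counted from the RefSeq start that follows each window. The motif of NFKB1 lay 49 to 40 bases before its RefSeq start, that of REL 47 to 38 bases and that of NFKBIB 28 to 19 bases. For these genes and NFKB2, the RefSeq starts used here differ from the GENCODE 29 gene starts given further below. By those gene starts, the motifs shown for NFKB2, REL and NFKBIB lie after the start and that of NFKB1 before it. The exact letters GGGAATTTCC, shared by NFKB1 and NFKBIB and read on the opposite strand in REL and NFKBIA, were found in 0.142% of all windows on either strand. The window of NFKBIA is given whole, since NFKBIA is the member with the highest control level in CAL-27 and was lower with the knockdown in both lines. Its motif, in capitals, lies 81 to 72 bases before the start and reads GGGAATTTCC on the opposite strand.
NFKBIA, chr14:35404750-35404999, minus strand: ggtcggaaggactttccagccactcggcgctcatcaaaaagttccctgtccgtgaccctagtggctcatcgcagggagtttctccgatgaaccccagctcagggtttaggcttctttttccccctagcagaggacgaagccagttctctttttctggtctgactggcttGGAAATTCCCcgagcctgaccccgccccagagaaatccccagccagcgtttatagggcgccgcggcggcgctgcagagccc

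Total counts lay between 16176655 and 18484112 per library. Levels below are in CPM, the counts scaled to a common library size, after TMM scaling, an adjustment for library composition, and differences are log2 fold changes with their standard errors (SE). The targeted gene TTK fell in both lines without overlap between groups, by 0.54 ± 0.0663 on the log2 scale in CAL-27 (edgeR adjusted p = 4.04e-10) and by 1.21 ± 0.0645 in SCC-15 (edgeR adjusted p = 1.92e-25). Of the SCC-15 libraries, both numbered 1 were unlike the rest of their groups. The mean chi-square per gene was 5.62 and 5.96 for control library 1 against the others, which gave 1.98 against each other. For library 1 of the shTTK group it was 3.07 and 3.78, against 1.95 for the remaining pair. The median chi-square over its expected value differed less. It was 1.92 and 2.11 for SCC-15 control library 1 against 1.76 for the remaining pair, and 2.07 to 2.14 among CAL-27 controls. For SCC-15 shTTK library 1 it was 2.2 and 2.63, against 1.77. The SCC-15 knockdown results of the 10 genes are therefore also given without both libraries numbered 1. The share of mitochondrial counts moved with the knockdown, from 4.24 to 4.32% up to 4.47 to 4.68% in CAL-27 and from 2.94 to 3.86% down to 2.35 to 2.69% in SCC-15, and its part in the results was not tested.

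All 10 epithelial and keratinocyte markers were at 1 CPM or more in every group, with a summed level of 4960 to 9060 CPM over the libraries. They moved with the knockdown too: 6 rose and 4 fell in CAL-27, where their sum went from 4960 to 5130 CPM up to 6040 to 6090 CPM, and 4 rose and 4 fell in SCC-15. Single markers moved far more than the sum. In CAL-27 KRT14 went from 3.44 to 73.2 CPM and KRT5 from 886 to 1920 CPM, while KRT8 fell from 1840 to 1150 CPM. In SCC-15 KRT14 fell from 763 to 370 CPM and KRT8 rose from 831 to 1160 CPM. The 7 leukocyte markers summed to 8.33 to 19.3 CPM, nearly all of it from CD14 and CSF1R, with PTPRC, the pan-leukocyte marker, at 0.0769 CPM or less in every group. The 5 endothelial markers summed to 102 to 110 CPM in CAL-27 controls and 72.4 to 74.4 CPM in CAL-27 shTTK, almost all of it from CDH5, with KDR at 0 in all groups. The 7 fibroblast markers summed to 31.9 to 37.6 CPM in CAL-27 controls and 41.4 to 42.2 CPM in CAL-27 shTTK, most of it from COL1A1 at 26.7 and 34.3 CPM, with PDGFRB at 5.18 and 4.26 CPM and COL1A2 at 3.15 and 2.55 CPM. In SCC-15 COL1A1 was at 20.1 and 20.4 CPM. COL3A1, DCN and PDGFRA were at 0.269 CPM or less in every group. The part of these marker changes in the results was not tested.

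**Figure D1:**
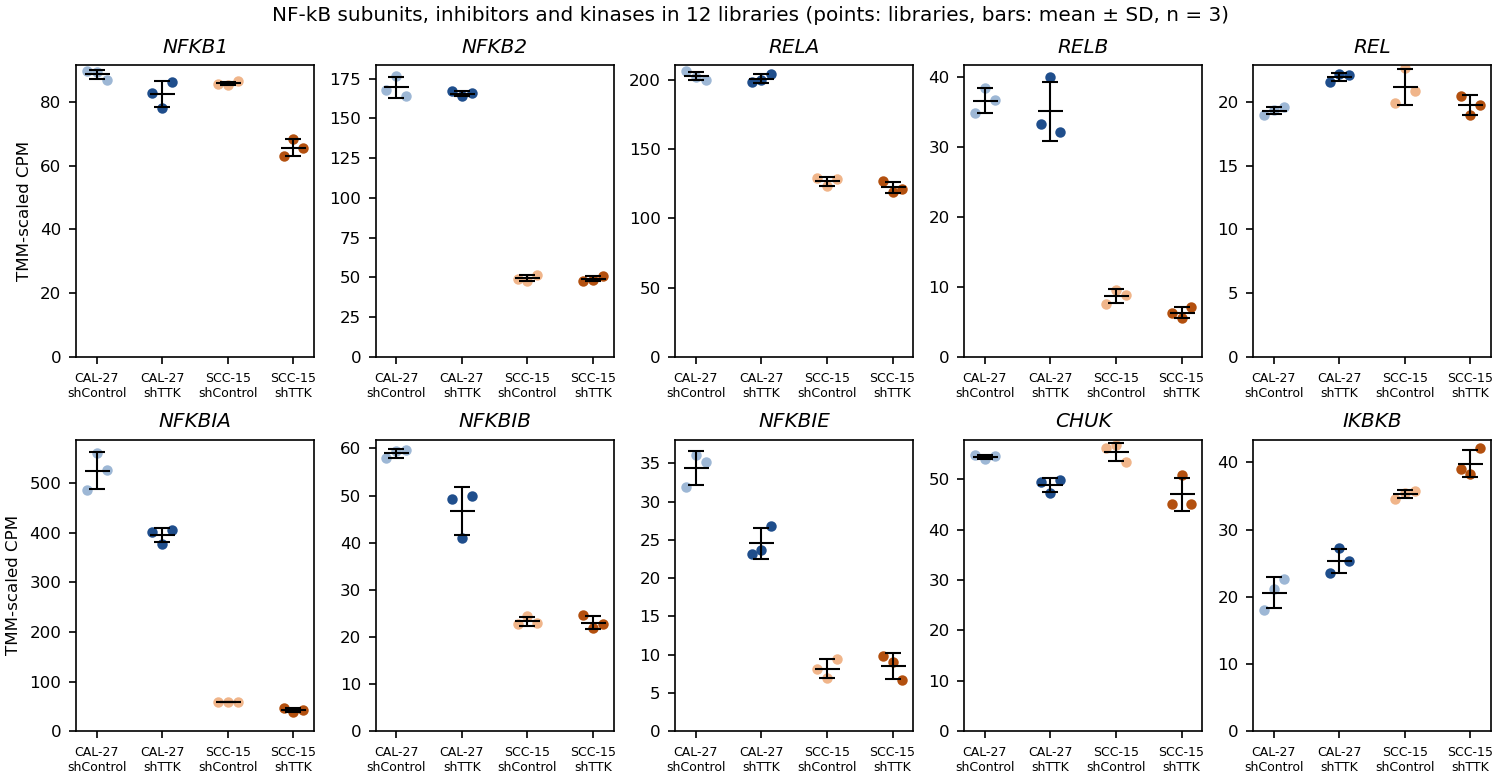
Level of each of the 10 genes in every library, in TMM-scaled CPM, by group. Points are libraries, bars are the mean and SD of 3 libraries, and each panel has its own axis. NFKBIA goes from 486 to 560 CPM in CAL-27 controls to 378 to 405 CPM in CAL-27 shTTK, and stays under 60 CPM in SCC-15.

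The comparison of shTTK with shControl asks how the transcripts of this system differ when TTK is reduced, and the series title names NF-kB among its subjects. In CAL-27 the 3 inhibitors fell, by 0.34 to 0.49 on the log2 scale, and no subunit passed the test. CHUK fell and IKBKB rose. In such bulk libraries a smaller share of cells with a transcript and less of it per cell cannot be told apart. In SCC-15 NFKB1, RELB, NFKBIA and CHUK were called lower and no member was called higher. IKBKB lay just past the threshold there, in the same direction as in CAL-27 (log2 fold change 0.17, edgeR adjusted p = 0.0504). NFKBIA and CHUK were thus called lower in both lines, CHUK in CAL-27 in only 12 of 20 other fits. Of the rest, 3 members were called in CAL-27 and not in SCC-15, 2 in SCC-15 and not in CAL-27, and 3 in neither. IKBKB is among those called in CAL-27 only, though its difference between lines was not called (-0.12, edgeR adjusted p = 0.439). The matching shares over all tested genes were not computed, so these counts are a description only. The genes called in neither line were NFKB2, RELA and REL.

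Of the 10 genes, 4 were called lower and 1 higher in CAL-27, where 15.7% of all tested genes were called lower and 11.6% higher. In SCC-15 4 were called lower and 0 higher, where 14.3% of all tested genes were called lower and 13.4% higher. The median log2 fold change of the 10 genes was -0.085 in CAL-27 and -0.075 in SCC-15, against -0.01 and 0 over all tested genes. Control and shTTK libraries did not overlap for 7 of the 10 genes in CAL-27, where this held for 38.4% of all genes, and for 5 in SCC-15, where it held for 38.9%. With 10 genes, these counts describe the members and set them apart from no other group of genes.

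**Figure D2:**
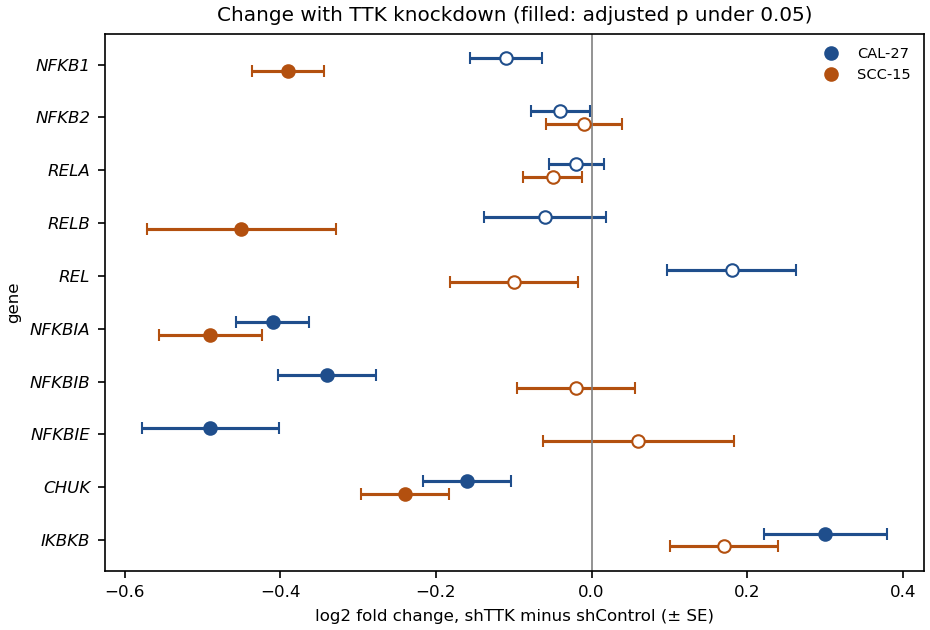
Log2 fold change of each of the 10 genes, shTTK minus shControl, in CAL-27 and SCC-15, with bars of 1 SE and filled points where the adjusted p was under 0.05. The inhibitors sit between -0.34 and -0.49 in CAL-27, while in SCC-15 NFKBIA is at -0.49 and the other inhibitors are near 0.

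Among the subunits, NFKB1 (GRCh38 chromosome 4, 102501329 to 102617302, plus strand) encodes p105, the precursor of p50. In CAL-27 controls its level was 89.5, 89.4 and 86.8 CPM, and in CAL-27 shTTK 82.6, 78.1 and 86.3 CPM. The groups were narrowly separate, and the log2 fold change of -0.11 ± 0.0457 was not called (edgeR adjusted p = 0.0766), except without CAL-27 shTTK library 3 (0.0331). In SCC-15 the controls held 85.7, 85.3 and 86.4 CPM, and the shTTK libraries 63.0, 68.3 and 65.4 CPM. Every shTTK library was thus well below every control. NFKB1 fell by 0.39 ± 0.0466 on the log2 scale in SCC-15, 1.31-fold lower (edgeR adjusted p = 1.47e-10), and by 0.36 without both libraries numbered 1 (edgeR adjusted p = 3.91e-07).

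The fall of NFKB1 in SCC-15 was shared by the genes around it on chromosome 4. Of the 12 tested protein-coding genes on each side, 24 in all, 19 were called lower and 0 higher in SCC-15, with a median log2 fold change of -0.472. In CAL-27 5 of the 24 were lower and 1 higher, with a median of -0.049. SLC39A8, the next tested gene on one side and a zinc and manganese transporter, changed by -0.22 in SCC-15, and MANBA, the next on the other side and a lysosomal mannosidase, by -0.47. METAP1, a methionine aminopeptidase, changed by -0.86. Over chromosome 4, 231 of 474 tested protein-coding genes were lower in SCC-15 (48.7%) and 13 higher, with a median of -0.247, against 78 lower and 34 higher in CAL-27 with a median of -0.026. The part of this chromosome-wide shift in the NFKB1 value was not tested. For no other member was the median of the neighbours this low. Over the 24 neighbours of each, it lay between -0.035 and 0.108 in SCC-15 and between -0.137 and 0.057 in CAL-27. The most called lower were in CAL-27, 10 of the neighbours of RELA with 3 higher (median -0.137), and 8 of those of NFKBIE with 3 higher (-0.105). The part of these shifts in the RELA and NFKBIE values was not tested.

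**Figure D3:**
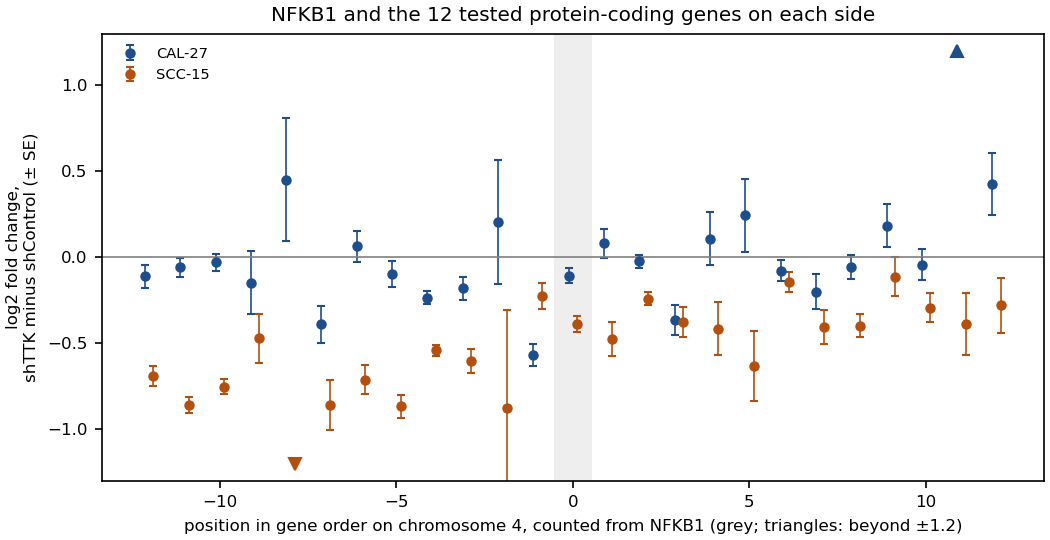
Log2 fold change, shTTK minus shControl, of NFKB1 and the 12 tested protein-coding genes on either side, in order along chromosome 4, with SE bars. In SCC-15 all 25 values lie below 0 and in CAL-27 they scatter around it; triangles mark values beyond the axis.

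NFKB2 (chromosome 10, 102394110 to 102402529, plus strand) encodes p100, the precursor of p52. It held 168, 177 and 164 CPM in CAL-27 controls and 167, 164 and 166 CPM in CAL-27 shTTK. SCC-15 libraries held 48.9, 48.0 and 51.5 CPM in controls and 47.9, 48.5 and 51.1 CPM in shTTK. The groups overlapped in both lines, and the 95% intervals of the log2 fold change were -0.11 to 0.04 and -0.10 to 0.09. Without both SCC-15 libraries numbered 1 the SCC-15 value of -0.01 became 0.0.

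RELA (chromosome 11, 65653596 to 65663094, minus strand) encodes p65, the main transactivating subunit of the canonical route. It held 206, 202 and 200 CPM in CAL-27 controls, and 198, 200 and 204 CPM in CAL-27 shTTK. The SCC-15 levels were 129, 123 and 128 CPM in controls and 127, 119 and 121 CPM in shTTK. These groups overlapped too, with intervals of -0.08 to 0.05 and -0.12 to 0.03 on the log2 scale. The SCC-15 value was -0.05, and -0.06 without both libraries numbered 1.

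RELB (chromosome 19, 45001430 to 45038198, plus strand) encodes the partner of p52 and had the lowest counts of the subunits in SCC-15. Its level was 34.9, 38.4 and 36.7 CPM in CAL-27 controls and 33.3, 40 and 32.2 CPM in CAL-27 shTTK, with overlapping groups and a log2 fold change of -0.06 ± 0.0784 (edgeR adjusted p = 0.644). In SCC-15 it was 7.60, 9.58 and 8.91 CPM in controls (133, 167 and 152 counts) and 6.30, 5.53 and 7.21 CPM in shTTK (108, 96 and 129 counts). The highest shTTK library was just under the lowest control. RELB fell by 0.45 ± 0.122 on the log2 scale in SCC-15 (edgeR adjusted p = 0.00263), and by 0.54 without both libraries numbered 1 (edgeR adjusted p = 0.00395).

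REL (chromosome 2, 60881521 to 60931610, plus strand) encodes c-Rel, a subunit best known from lymphocytes. It held 19, 19.4 and 19.6 CPM in CAL-27 controls and 21.6, 22.2 and 22.1 CPM in CAL-27 shTTK, so the groups did not overlap, but the log2 fold change of 0.18 ± 0.0828 was not called (edgeR adjusted p = 0.0929). In SCC-15 it held 19.9, 22.7 and 20.9 CPM in controls and 20.5, 19 and 19.8 CPM in shTTK, with overlapping groups and a log2 fold change of -0.10 (edgeR adjusted p = 0.417), or -0.17 without both libraries numbered 1 (0.248). In GENCODE 29, 43.3% of its exon bases are shared with AC010733.2, a non-coding gene on the same strand. How reads in that overlap were assigned is not given in the sources used here, so the REL counts are uncertain. The largest overlap of any other member was 1.72% of exon bases, that of NFKBIB with SIRT2 on the opposite strand.

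Among the inhibitors, NFKBIA (chromosome 14, 35401511 to 35404749, minus strand) encodes IkB-alpha, which is rapidly degraded and resynthesised under NF-kB control. It held 486, 560 and 527 CPM in CAL-27 controls and 402, 378 and 405 CPM in CAL-27 shTTK. All shTTK libraries were below all controls. NFKBIA fell by 0.41 ± 0.0474 on the log2 scale, 1.33-fold lower (edgeR adjusted p = 1.49e-06). In SCC-15 it held 59.1, 59.7 and 59.2 CPM in controls and 46.5, 38.7 and 41.9 CPM in shTTK. The groups were again separate, with a coefficient of variation of 0.541% in controls and 9.29% in shTTK. NFKBIA fell by 0.49 ± 0.0661 in SCC-15, 1.40-fold lower (edgeR adjusted p = 1.08e-05), and by 0.56 without both libraries numbered 1 (edgeR adjusted p = 1.29e-05).

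NFKBIB (chromosome 19, 38899700 to 38908893, plus strand) encodes IkB-beta, an inhibitor degraded more slowly than IkB-alpha. It held 57.9, 59.4 and 59.7 CPM in CAL-27 controls and 49.3, 40.9 and 50.0 CPM in CAL-27 shTTK. Library 2 was the lowest of the shTTK group, and all 3 were below the controls. NFKBIB fell by 0.34 ± 0.0627 in CAL-27 (edgeR adjusted p = 1.21e-05). Its SCC-15 levels were 22.7, 24.4 and 22.9 CPM in controls and 24.6, 21.8 and 22.7 CPM in shTTK, with overlapping groups and a log2 fold change of -0.02 ± 0.0760 (edgeR adjusted p = 0.891), or -0.09 without both libraries numbered 1 (0.565).

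NFKBIE (chromosome 6, 44258166 to 44265788, minus strand) encodes IkB-epsilon, another inhibitor that NF-kB induces. It held 31.9, 36.1 and 35.2 CPM in CAL-27 controls and 23.1, 23.7 and 26.8 CPM in CAL-27 shTTK, without overlap. NFKBIE fell by 0.49 ± 0.0878 in CAL-27, 1.40-fold lower (edgeR adjusted p = 9.33e-06). The levels in SCC-15 were 8.17, 6.94 and 9.44 CPM in controls and 9.86, 9.10 and 6.65 CPM in shTTK. These groups overlapped fully, and the log2 fold change of 0.06 ± 0.123 had a 95% interval of -0.18 to 0.30 (edgeR adjusted p = 0.790). Its sign turned without both libraries numbered 1, to -0.06 (edgeR adjusted p = 0.857).

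Of the kinases, CHUK (chromosome 10, 100188298 to 100229619, minus strand) encodes IKK-alpha. It held 54.9, 54.1 and 54.6 CPM in CAL-27 controls and 49.4, 47.3 and 49.9 CPM in CAL-27 shTTK. The groups were separate, and CHUK fell by 0.16 ± 0.0564 on the log2 scale (edgeR adjusted p = 0.0273). This call was lost in 8 of 20 other fits, with adjusted p up to 0.127; these include the fits without CAL-27 control library 1 (0.123), 2 (0.0517) or 3 (0.0602), CAL-27 shTTK library 2 (0.127), SCC-15 control library 1 (0.0571) or 3 (0.0573), and SCC-15 shTTK library 2 (0.0572). In SCC-15 CHUK held 56.2, 56.8 and 53.5 CPM in controls and 45.1, 50.8 and 45.2 CPM in shTTK, also without overlap. There it fell by 0.24 ± 0.0562 (edgeR adjusted p = 0.000495), and by 0.20 without both libraries numbered 1 (edgeR adjusted p = 0.0226).

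IKBKB, on chromosome 8, encodes IKK-beta, the kinase of the canonical route. It held 18.1, 21.2 and 22.6 CPM in CAL-27 controls and 23.6, 27.2 and 25.3 CPM in CAL-27 shTTK. Every shTTK library was above every control, and IKBKB rose by 0.30 ± 0.0790 on the log2 scale, 1.23-fold (edgeR adjusted p = 0.00216). In SCC-15 it held 34.6, 35.5 and 35.8 CPM in controls and 39.0, 38.3 and 42.2 CPM in shTTK. Here too the groups were separate in the same direction, but the log2 fold change of 0.17 ± 0.0693 lay just past the threshold (edgeR adjusted p = 0.0504). It was called in 11 of 20 other fits, with adjusted p from 0.0288 to 0.239, among them the fits without any 1 of the 3 CAL-27 control libraries, without CAL-27 shTTK library 1 (0.0497) or 2 (0.0479), and without SCC-15 shTTK library 2 (0.0414). It was not called without both libraries numbered 1 (log2 fold change 0.18, edgeR adjusted p = 0.136), nor in the other 8 fits.

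The knockdown changes of the lines were compared by subtracting the CAL-27 log2 fold change from that of SCC-15, which uses the same libraries as the changes themselves. TTK itself fell further in SCC-15, with a difference of -0.67 ± 0.093 (edgeR adjusted p = 2.37e-08). The depth of the knockdown and the line therefore cannot be told apart in these differences. Of the 10 genes, 4 differed between lines, 2 with a lower and 2 with a higher value in SCC-15, where 25.4% of all tested genes differed. NFKB1 fell further in SCC-15, with a difference of -0.28 ± 0.0653 (edgeR adjusted p = 0.000459), and so did RELB, with -0.39 ± 0.145 (edgeR adjusted p = 0.0364). For 2 of the 3 inhibitors the order was the other way: the difference was 0.32 ± 0.0985 for NFKBIB (edgeR adjusted p = 0.0111) and 0.54 ± 0.151 for NFKBIE (edgeR adjusted p = 0.00426), both called lower with the knockdown in CAL-27 and not in SCC-15. Without both SCC-15 libraries numbered 1, NFKBIB (0.25, edgeR adjusted p = 0.0952) and NFKBIE (0.43, edgeR adjusted p = 0.0667) no longer passed, and REL did (-0.35, edgeR adjusted p = 0.0374). NFKBIB also missed the threshold without CAL-27 shTTK library 2 (edgeR adjusted p = 0.0901), and REL also passed without SCC-15 control library 1 (0.0411). The RELB difference was called in 10 of 19 other fits. It was lost without CAL-27 control library 1 (edgeR adjusted p = 0.0705) or 3 (0.0507), CAL-27 shTTK library 2 (0.162), SCC-15 control library 2 (0.148) or 3 (0.0693), or SCC-15 shTTK library 1 (0.0632) or 2 (0.139). For NFKBIA and CHUK the differences were -0.08 each, with 95% intervals of -0.24 to 0.08, and the changes of the 2 lines were not told apart.

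The lines differed far more from each other than either did from its knockdown. In SCC-15 controls 6 of the 10 genes were lower than in CAL-27 controls and 1 was higher, where 38.2% of all tested genes were lower and 37.8% higher. The control libraries of the lines did not overlap for 9 of the 10 genes, as for 77.3% of all genes. The median log2 difference of the 10 genes was -1.01, against -0.011 over all tested genes. NFKBIA was 8.83-fold lower in SCC-15 (log2 difference -3.14 ± 0.0558, edgeR adjusted p = 9.37e-21). RELB (-2.08), NFKBIE (-2.07), NFKB2 (-1.78), NFKBIB (-1.34) and RELA (-0.68) were lower as well, with edgeR adjusted p of 5e-28 or smaller. IKBKB was higher in SCC-15, by 0.78 ± 0.0753 (edgeR adjusted p = 2.73e-15). NFKB1 (-0.05, 95% interval -0.13 to 0.04), REL (0.13, -0.03 to 0.29) and CHUK (0.02, -0.08 to 0.13) were not called.

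Levels of different genes were compared per kilobase of exon (CPM per kb). In CAL-27 controls NFKBIA was highest at 221 ± 15.8 CPM per kb (SD, n = 3), followed by NFKB2 at 37.9 ± 1.5 and RELA at 37.1 ± 0.607, whose libraries overlapped. NFKBIB followed at 25.4 ± 0.418. NFKB1 at 14.2, NFKBIE at 13.3 and RELB at 12.1 formed a group in which each overlapped the next. CHUK at 7.87, IKBKB at 1.84 and REL at 1.47 were the lowest, each separate from the next. In SCC-15 controls NFKBIA, at 25.0 ± 0.135 CPM per kb, stood little above RELA at 23.1 ± 0.578. NFKB1 at 13.7, NFKB2 at 11, NFKBIB at 10 and CHUK at 8.01 followed in that order without overlap. NFKBIE at 3.17, IKBKB at 3.14 and RELB at 2.87 overlapped their neighbours, and REL was again lowest at 1.61. In SCC-15 shTTK RELA, at 22.4 ± 0.788, was above NFKBIA at 17.9 ± 1.66, and NFKB2 (11), NFKB1 (10.5) and NFKBIB (9.91) ran together. With the length of the longest coding transcript in place of all exons, RELA came before NFKB2 in both CAL-27 groups and before NFKBIA in SCC-15 controls, and CHUK before NFKBIE in CAL-27 and before NFKB2 in SCC-15 controls, so these orders depend on the length used.

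The make-up of the family differed between lines as a result of these levels, here as a share of summed CPM per kb and with no test. NFKB2 made up 36.9 ± 0.698% of the subunit level in CAL-27 controls and 21.1 ± 0.462% in SCC-15 controls. NFKB1 made up 13.8 ± 0.170% and 26.2 ± 0.219%, and RELA 36.1 ± 0.821% and 44.2 ± 0.852%. With the knockdown the share of NFKB1 in SCC-15 was 22.1 ± 1.13%, while that of NFKB2 was 23.1 ± 0.702% and that of RELA 47.2 ± 1.42% (SD, n = 3 for each). In CAL-27 shTTK the shares of these 3 subunits were 13.2%, 36.9% and 36.7%, each with a range that overlapped the controls.

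Among the inhibitors, NFKBIA held 85.1 ± 0.538% of the summed level per length in CAL-27 controls and 84.9 ± 0.673% in CAL-27 shTTK, where all 3 inhibitors fell. In SCC-15 it held 65.4 ± 0.503% in controls and 57.4 ± 1.49% in shTTK, with no overlap. The ratio of NFKBIA to RELA per length was 5.42 to 6.39 in CAL-27 controls and 4.35 to 4.66 in CAL-27 shTTK. It was 1.06 to 1.12 in SCC-15 controls and 0.750 to 0.844 in SCC-15 shTTK. Summed over the 3 inhibitors and 5 subunits, the ratio went from 2.53 ± 0.147 to 1.96 ± 0.0960 in CAL-27 and from 0.731 ± 0.0102 to 0.655 ± 0.0505 in SCC-15, where control libraries held 0.723 to 0.742 and shTTK libraries 0.625 to 0.714. These are ratios of transcripts, and protein was not measured.

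**Figure D4:**
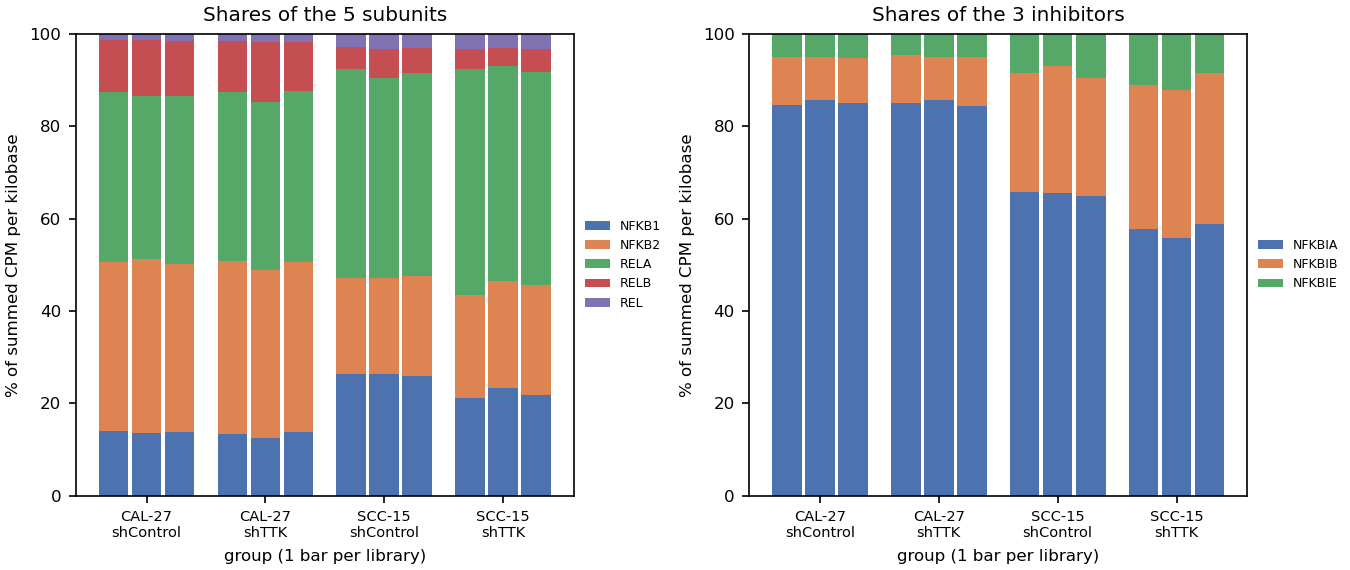
Share of each subunit in the summed subunit level, and of each inhibitor in the summed inhibitor level, per kb of exon, with 1 stacked bar per library. NFKB2 averages 36.9% in both CAL-27 groups and 21.1 to 23.1% in SCC-15, and NFKBIA averages 65.4% in SCC-15 controls and 57.4% in SCC-15 shTTK.

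The other genes of the pathway were taken from 6 lists of 80 genes in all, of which 74 were tested. In CAL-27 10 were called higher and 22 lower, and in SCC-15 11 higher and 18 lower. This is 43.2% and 39.2% of the 74, beside 27.3% and 27.7% of all tested genes. Their medians were -0.055 and -0.02. The lists were chosen with earlier results of these data known. These counts and shares therefore only describe the 74 genes and set them apart from no other group. They include the calls of EDAR in CAL-27 and IL1R1 in SCC-15, which are not relied on, as stated below. The genes named from each list are those with the smallest adjusted p, up to 3 per line.

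Of 14 ligands 9 were tested, with 3 higher and 4 lower in CAL-27 and 0 higher and 3 lower in SCC-15. IL1A, which encodes interleukin 1 alpha, fell in both lines, from 697 to 537 CPM in CAL-27 (log2 fold change -0.38 ± 0.0341) and from 81.6 to 60.2 CPM in SCC-15 (-0.44 ± 0.0442). IL1B, its relative, fell by 1.28 ± 0.0677 in SCC-15, from 64.1 to 26.4 CPM, and by 0.20 ± 0.0448 in CAL-27. TNFSF10, the death ligand TRAIL, rose by 0.85 ± 0.0698 in CAL-27 and fell by 0.32 ± 0.0526 in SCC-15, and this difference passed the test (-1.17 ± 0.0874, edgeR adjusted p = 7.09e-19). IL1RN, which encodes the antagonist of the interleukin 1 receptor, rose in CAL-27 from 0.751 to 2.64 CPM, from 39 counts over 3 libraries to 130 (1.8 ± 0.290).

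Of 17 receptors 16 were tested, with 3 higher and 5 lower in CAL-27 and 2 higher and 5 lower in SCC-15. These include EDAR, called higher in CAL-27 on 0, 0 and 0 counts in controls and 9, 0 and 0 in shTTK, and IL1R1, called lower in SCC-15 on 5, 6 and 2 counts in controls and 3, 0 and 0 in shTTK. In both cases the groups overlapped and the gene passed the count filter through the other line, so these calls are not relied on. Both are named after their values were seen. CD40, a TNF receptor family member that signals to the NFKB2 route, fell in SCC-15 from 2.06 to 0.285 CPM, from 107 counts over 3 libraries to 15 (-2.82 ± 0.318, edgeR adjusted p = 1.74e-11), while in CAL-27 it was at 49.8 and 47.1 CPM (edgeR adjusted p = 0.453). TLR6, a Toll-like receptor, fell in SCC-15 by 1.26 ± 0.138, and IL1RAP, the shared chain of interleukin 1 receptors, by 0.61 ± 0.0686. In CAL-27 TNFRSF12A, the receptor of TWEAK, fell by 0.42 ± 0.0428, TLR4 fell by 0.87 ± 0.192 and TNFRSF10B, a TRAIL receptor, rose by 0.12 ± 0.0352.

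Of 25 adaptors, ubiquitin ligases and related signalling genes, 3 rose and 8 fell in CAL-27, and 3 rose and 5 fell in SCC-15. BIRC3, the ubiquitin ligase cIAP2, fell in CAL-27 from 114 to 78.9 CPM (-0.53 ± 0.0514) and in SCC-15 from 2.99 to 2.02 CPM (-0.56 ± 0.178, edgeR adjusted p = 0.0117), where the call was lost without control library 3 (edgeR adjusted p = 0.0962), without shTTK library 1 (0.0598) or without both libraries numbered 1 (0.0662). The SCC-15 call of BIRC3 was also lost with limma-voom (limma-voom adjusted p = 0.0948) and with the groups of the contrast alone (edgeR adjusted p = 0.0647). MALT1, a paracaspase, fell by 0.43 ± 0.0920 in CAL-27 and by 0.38 ± 0.0999 in SCC-15, the latter not called without both libraries numbered 1 (edgeR adjusted p = 0.170). BCL10, its partner, rose by 0.26 ± 0.0505 in CAL-27. IRAK1, a kinase below the interleukin 1 receptor, fell by 0.26 ± 0.0328 in CAL-27 and rose by 0.09 ± 0.0321 in SCC-15, a rise that was lost without control library 1 (edgeR adjusted p = 0.0830), shTTK library 1 (0.127) or both (0.401). BTRC and FBXW11, the F-box proteins that mark phosphorylated IkB for degradation, fell in SCC-15 by 0.27 ± 0.0707 and 0.26 ± 0.0499.

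Of 10 other kinases and their partners, 0 rose and 3 fell in CAL-27, and 1 rose and 4 fell in SCC-15. IKBKE, an IKK-related kinase, fell by 0.20 ± 0.0492 in CAL-27 and 0.44 ± 0.0761 in SCC-15. MAP3K3, a kinase that acts on the IKK complex, fell by 0.30 ± 0.0727 in CAL-27 and 0.57 ± 0.0742 in SCC-15. TAB3, an adaptor of the kinase TAK1, fell by 0.32 ± 0.0446 in CAL-27 and by 0.17 ± 0.0501 in SCC-15, the latter not called without shTTK library 1 (edgeR adjusted p = 0.105) or both libraries numbered 1 (0.206). MAP3K14, the kinase NIK that acts on CHUK, fell by 0.27 ± 0.0608 in SCC-15.

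Of 6 further IkB family genes and cofactors, 1 rose and 1 fell in CAL-27, and 3 rose and 0 fell in SCC-15. BCL3, a nuclear IkB protein, fell by 0.38 ± 0.0524 in CAL-27 and rose by 0.25 ± 0.0658 in SCC-15, where the call was lost without shTTK library 2 (edgeR adjusted p = 0.0699). Its difference between lines was 0.63 ± 0.0841 (edgeR adjusted p = 5.89e-09). NFKBIZ, which encodes IkB-zeta, rose by 0.44 ± 0.0639 in CAL-27, from 260 to 353 CPM, and was at 34.2 and 33.7 CPM in SCC-15. PDLIM2, a ligase for nuclear RELA, rose by 0.65 ± 0.109 in SCC-15, and NFKBID, another nuclear IkB gene, by 0.70 ± 0.208, with the NFKBID call lost without shTTK library 3 (edgeR adjusted p = 0.0596).

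Of 8 deubiquitinases and feedback inhibitors, 0 rose and 1 fell in CAL-27, and 2 rose and 1 fell in SCC-15. ZC3H12A, the RNase Regnase-1, rose by 0.59 ± 0.0430 in SCC-15, from 65.8 to 99.0 CPM, and was at 328 and 325 CPM in CAL-27. TNIP2, a partner of TNFAIP3, rose by 0.26 ± 0.0651 and OTULIN, a linear ubiquitin protease, fell by 0.32 ± 0.0456 in SCC-15. TNIP1 fell by 0.12 ± 0.0326 in CAL-27.

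Between the control libraries of the lines, 46 of the 74 pathway genes were lower in SCC-15 and 23 higher, 93.2% called beside 76.0% of all tested genes. Some of these genes passed the count filter only through CAL-27 and so had to be lower in SCC-15: over the 3 control libraries LTB had 106 counts in CAL-27 and 3 in SCC-15, and TNFSF14 415 and 12. EDAR passed only through SCC-15, with 0 counts in CAL-27 controls and 526 in SCC-15 controls, and so had to be higher in SCC-15. The counts of lower and of higher genes are therefore a description only. LTB and TNFSF14, as well as TNF and TNFAIP3, which encodes the feedback inhibitor A20, were chosen after their values were seen. TNF, which also passed the count filter only through CAL-27, was at 197 CPM in CAL-27 controls and had 2 counts over the 3 SCC-15 control libraries. TNFAIP3 was at 874 and 13.0 CPM.

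**Figure D5:**
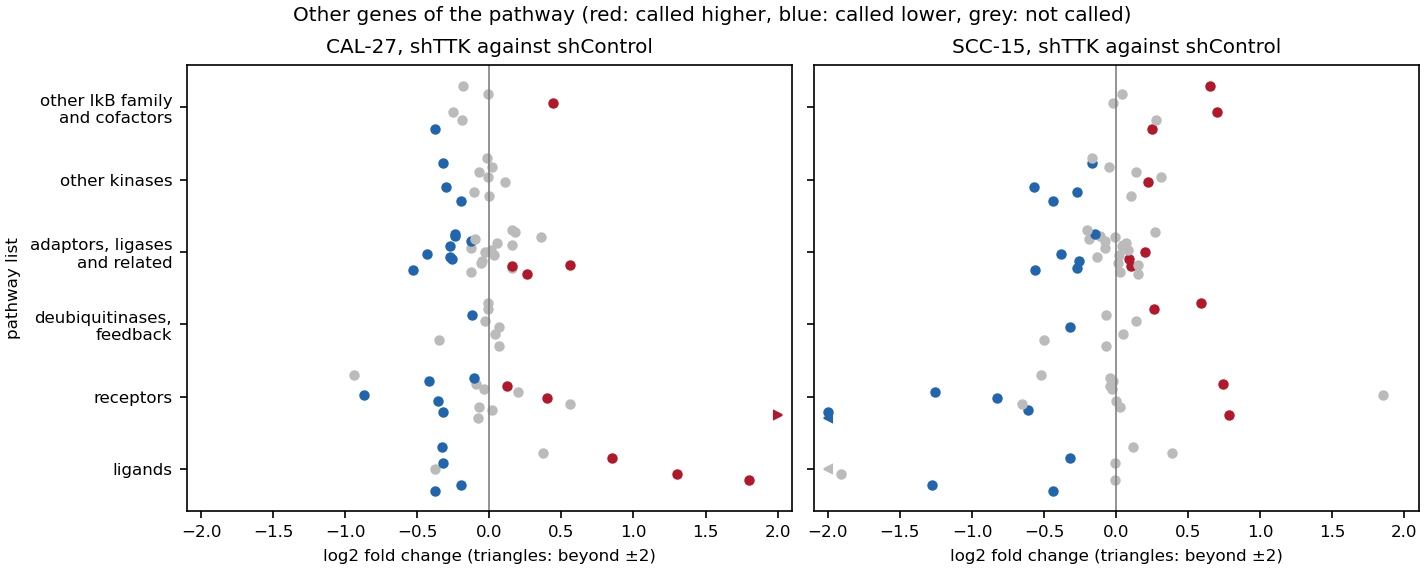
Log2 fold change, shTTK minus shControl, of the 74 tested pathway genes by list, in CAL-27 and SCC-15. Each point is a gene, red where called higher, blue where called lower and grey otherwise, with triangles for values beyond the axis. Of the ligands, 3 rise and 4 fall in CAL-27, and 3 fall in SCC-15 with none rising.

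For each member called with the knockdown, the genes with the most similar course were sought among 9677 genes of at least 10 CPM, by Pearson's r of log2 CPM over the 12 libraries with each line centred on its own mean. These are descriptions: the libraries share the groups, and the highest of many values was taken. NFKB1 ran closest to DCTD (r = 0.987), then to GOLGA3 (0.985) and COMMD9 (0.980). NFKBIA ran closest to MRPS2 (0.978), FBXW5 (0.977) and STIP1 (0.973). CHUK ran closest to NADK2 (0.971), LDLRAD3 and POLR2M (0.958 each), and IKBKB to AFAP1 (0.971), ZSWIM6 (0.949) and KLHL13 (0.944). RELB was closest to CCNG2 (0.940), ABHD14B (0.920) and VPS39 (0.918), NFKBIB to TESK1 (0.948), PLK1 (0.947) and FKBP5 (0.946), and NFKBIE to LFNG (0.938), CD82 (0.916) and BABAM1 (0.912). DCTD, CCNG2 and AFAP1, the closest genes of NFKB1, RELB and IKBKB, lie on chromosome 4. MRPS2 and TESK1, the closest of NFKBIA and NFKBIB, lie on chromosome 9, LFNG, that of NFKBIE, on 7, and NADK2, that of CHUK, on 5. The share of chromosome 4 among the 9677 genes was not computed, so no pattern is read from these positions. The closest 3 genes of each of these 7 members included none of the other members. With 9677 genes searched and only 3 kept per member, this cannot tell whether members ran together.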

How the data were processed

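RNA was poly(A)-selected, made into strand-specific libraries and read as paired ends of 150 bases, per the labels' protocols. The authors deposited 1 table of raw read counts by gene symbol, not normalized. Build hg38, STAR 2.7.7a, featureCounts 2.0.1 and Trim Galore 0.6.6 are named in the submitters' processing notes. Neither the annotation nor the strand setting of the counting is given in these sources. All 12 columns were mapped to a sample by name (0 unmapped).

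Genes were filtered with filterByExpr, scaled by TMM and tested with edgeR 4.0.16 in R 4.3.3 (limma 3.58.1): a robust quasi-likelihood fit of 4 group means to 12 libraries, two-sided, Benjamini-Hochberg adjusted over all 16946 tested genes of a contrast, with calls at an adjusted p under 0.05. The contrasts were shTTK against shControl in each line, the difference of these, and SCC-15 against CAL-27 controls. They share libraries. The common biological coefficient of variation was 0.0393, with 8 residual degrees of freedom. Of the lines of the table, 1568 repeat a symbol; each line stayed a separate feature, and every member has 1 line. Coordinates and exon lengths are from GENCODE 29 on GRCh38, promoters from RefSeq.

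The members and the lists were chosen with earlier results of these data known. Named are the members, TTK, up to 3 genes per pathway list and line by adjusted p, and the 3 genes most like each called member; exceptions are stated. Marker genes were fixed as lists too. Alternatives were RLE scaling, DESeq2 1.42.0, limma-voom, other count filters, the groups of a contrast alone, a replicate block, and libraries left out. Of these steps, only the edgeR test of the knockdown contrasts was tried on simulated data, with changes larger than those called among the members.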

Additional observations from a re-analysis of the deposited data

Results flagged for a closer look

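The knockdown change differed between the lines for 4 of the 10 genes, by edgeR's test of the difference itself (SCC-15 minus CAL-27 log2 fold change). By the same test 25.4% of all tested genes differed, and the count describes the 10 genes only. TTK itself had a difference of -0.67 (edgeR adjusted p = 2.37e-08), so the depth of the knockdown and the line cannot be told apart. NFKB1 had a difference of -0.28 (edgeR adjusted p = 0.000459), called in 19 of 19 other fits, and its neighbours on chromosome 4 had a median difference of -0.496. RELB had a difference of -0.39 (edgeR adjusted p = 0.0364), called in 10 of 19 other fits. NFKBIB had a difference of 0.32 (edgeR adjusted p = 0.0111), called in 17 of 19, and NFKBIE one of 0.54 (edgeR adjusted p = 0.00426), called in 18 of 19. Without both SCC-15 libraries numbered 1, the values were -0.26 for NFKB1, -0.48 for RELB, 0.25 for NFKBIB and 0.43 for NFKBIE, and the last 2 were not called (edgeR adjusted p = 0.0952 and 0.0667).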

How the results depend on the processing

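No result changed its direction while called. Of 474 recomputed counts of called genes, 452 stayed within 1.5 times the reported count. In SCC-15 1 of the 10 genes was called higher, IKBKB, in place of 0, with limma-voom, RLE size factors, a minimum of 1 CPM in 3 libraries, no filter beyond 1 read, or the groups of the contrast alone, and 0 to 1 with a library left out. In the difference between lines, 0 in place of 2 were called higher without both SCC-15 libraries numbered 1, and 1 to 2 with a library left out; 1 in place of 2 were called lower with DESeq2 and with limma-voom, and 1 to 3 with a library left out. In CAL-27 3 to 5 were called lower with a library left out. With the longest coding transcript as the length, NFKB2 made up 32.5% and 32.6% of subunits in CAL-27 (shControl, shTTK) and 17.9% and 19.6% in SCC-15, and NFKBIA 88.4%, 88.3%, 71.4% and 64.1% of inhibitors. The cause of these moves was not tested, save that the lengths differ by construction.

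Same-numbered libraries of a line did not deviate together (correlations of residuals from -0.0206 to 0.0377), and only 2 of 6 libraries per line correlated best with their own number, so the numbers were not taken as pairs. With the replicate block, the calls among the 10 genes were 1 higher and 4 lower in CAL-27, 0 and 4 in SCC-15, 2 and 2 in the difference, and 1 and 6 between control groups, as without it. Over all genes the block gave 1947 higher and 2615 lower calls in CAL-27 (1961 and 2657 without it). RELB and NFKBIE, at 96 to 169 counts per library in SCC-15, have the widest standard errors of the 10 genes there (0.122 and 0.123). The libraries of NFKBIE spread by 15.3% and 19.6% (coefficient of variation), and the shares of depth and of library spread in this were not tested.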
